A study of Mus musculus with 6 samples.

Results

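The 9 homeostatic microglia genes P2ry12, P2ry13, Tmem119, Cx3cr1, Csf1r, Siglech, Fcrls, Sall1 and Gpr34 were followed in microglia of the postnatal day (P) 12 cerebral cortex, with and without the growth factor gene Nodal in pericytes. All 9 were found by symbol among the 56884 genes of the count tables. Cells were taken as microglia from genes outside the list: a barcode needed at least 1500 unique molecular identifiers (UMIs, 1 per captured transcript), at least 2 UMIs in 3 or more of C1qa, C1qb, Selplg, Ctss and Laptm5, and no UMI of Mrc1, a receptor of border-associated macrophages. Of 3237 control barcodes 643 passed, and of 5008 iPCKO barcodes 1086. The control mice were Nodal lox/lox and are labelled with no Cre transgene, and the mutants were Nodal iPCKO, that is Nodal lox/lox with Pdgfrb(BAC)-CreERT2, an artificial chromosome transgene that uses the Pdgfrb gene to drive inducible Cre in mural cells (pericytes and vascular smooth muscle cells). Pups of both genotypes received 50 µg tamoxifen on each of 3 days, P1 to P3. Cortices without meninges from 2 perfused mice were pooled for each genotype, digested with papain and Liberase, freed of myelin debris and captured on barcoded beads for whole-transcriptome sequencing. Each genotype thus has 1 library, no difference below has a replicate, no test was possible, and every interval covers counting error only. Mice of either sex were grouped without regard to it.

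Microglia are the resident macrophages of the brain parenchyma. In the undisturbed brain they carry a set of surface receptors with which they sense nucleotides, chemokines, lipids and growth factors, and the transcription factor Sall1 and signals of the transforming growth factor β (TGFβ) family are known to maintain this set. In injured, inflamed or degenerating brain, the same genes are often lower while disease-associated genes such as Axl, Clec7a and Itgax are higher. Nodal is itself a ligand of the TGFβ family, and the comparison sets microglia of mice whose pericytes lack it beside those of controls.

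The genes do not lie together in the genome, apart from P2ry12 and P2ry13. In the GRCm39 assembly with Gencode vM39 annotation these are on chromosome 3 from 59123682 to 59170429, minus strand, and on chromosome 3 from 59114539 to 59118304, minus strand, 5377 bases apart, and both lie inside Med12l on the other strand. Fcrls, listed in that annotation as Fcrl2 under the same gene identifier, is on chromosome 3 from 87156616 to 87181827, minus strand. The 250 bases before the start site of each canonical transcript were searched. For Fcrls, Csf1r, Gpr34, Cx3cr1, Sall1 and Siglech that start site lies inside the span of the gene. The search was for GAGGAA, the core of sites bound by the macrophage factor PU.1, on both strands. It was present in 3 of the 9 genes (P2ry13, Fcrls and Csf1r), against 22.9% of 21770 protein-coding genes. The longer form GAGGAAGT was in none of the 9 and in 2.08% of all, and CAGACA, a SMAD box read by the TGFβ and Nodal pathway, was in 3 of the 9 (Tmem119, Siglech and Fcrls) and in 15.6% of all. The stretches of the neighbouring pair P2ry12 and P2ry13 and of Fcrls, the gene with the lowest ratio, are shown 5′ to 3′ along each gene, read from that assembly, with GAGGAA in capitals where it occurs.
P2ry12, chr3:59170430-59170679, minus strand: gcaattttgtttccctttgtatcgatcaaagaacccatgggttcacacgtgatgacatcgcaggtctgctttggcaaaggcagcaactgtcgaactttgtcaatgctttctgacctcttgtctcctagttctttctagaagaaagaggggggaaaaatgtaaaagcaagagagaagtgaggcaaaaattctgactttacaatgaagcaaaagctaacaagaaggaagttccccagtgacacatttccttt
P2ry13, chr3:59118305-59118554, minus strand: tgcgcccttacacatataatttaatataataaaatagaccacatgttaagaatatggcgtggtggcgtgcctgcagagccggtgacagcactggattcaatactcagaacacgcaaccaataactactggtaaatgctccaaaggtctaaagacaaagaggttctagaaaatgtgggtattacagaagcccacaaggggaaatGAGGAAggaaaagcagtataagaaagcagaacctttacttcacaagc
Fcrls, chr3:87170909-87171158, minus strand: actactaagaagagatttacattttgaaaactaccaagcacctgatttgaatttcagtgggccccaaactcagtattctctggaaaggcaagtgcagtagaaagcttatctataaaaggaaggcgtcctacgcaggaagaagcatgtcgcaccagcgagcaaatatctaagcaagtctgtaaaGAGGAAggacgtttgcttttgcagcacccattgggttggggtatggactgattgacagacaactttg
The motif began 47 bases before the start site of P2ry13 and 67 bases before that of Fcrls, and these exact letters were not in the window of P2ry12. A match in letters is no evidence of binding.

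The gated cells had a median of 5942 UMIs in the control and 6306 in the iPCKO library, 4069273 and 7416167 UMIs in all, and made up 19.9% (18.5 to 21.3%) and 21.7% (20.6 to 22.9%) of barcodes (exact Clopper-Pearson 95% intervals). Levels are given as CPM, the UMIs of a gene per 1e6 UMIs of the gated cells, where UMIs of all cells were summed. Markers of border-associated macrophages, neutrophils and lymphocytes were near 0, and those of monocytes were higher. The 7 border-associated macrophage markers summed to 4.91 and 6.47 CPM, with Cd163 at 0 in both. This sum is partly fixed by the gate, which sets Mrc1, one of the 7, to 0 and removes the barcodes that hold it. The 3 neutrophil markers summed to 0.737 and 0.809 CPM, with Retnlg at 0, and the 4 lymphocyte markers to 2.21 and 3.24 CPM. The 4 monocyte markers summed to 45.2 and 34.0 CPM, most of it Plac8, and the 5 endothelial markers to 369.6 and 446 CPM. The 21 barcode sequences passing in both libraries include 1 gated in both. The deletion was visible in gated pericytes, where Nodal had 134 CPM (115 to 155, exact Poisson 95% interval) in 249 control cells and no UMI in 353 iPCKO cells, which allows up to 1.44 CPM at 3 counts. Other RNA also moved with genotype in the gated cells. The 4 haemoglobin genes Hba-a1, Hba-a2, Hbb-bs and Hbb-bt summed to 5.41 and 847 CPM, and the 5 fibroblast markers Dcn, Lum, Col1a1, Col1a2 and Igf2 to 9.34 and 91.8 CPM. Their part in the results was not tested, and leaving haemoglobin and Pdgfrb out of the totals, an alternative added after the data were seen, gave a median log2 ratio of -0.62 for the 9 genes.

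All 9 homeostatic genes were lower in iPCKO than in control microglia. The log2 ratios of iPCKO over control ran from -1.37 for Fcrls to -0.25 for Sall1, with a median of -0.63, against -0.03 for all 9051 genes that had 100 UMIs or more when the gated cells of control and iPCKO were added up. All 9 members passed this minimum. Of the 9, 5 (Fcrls, Gpr34, P2ry13, P2ry12 and Tmem119) were at least 1.5-fold lower, a size passed downward by 5.1% of all tested genes, and none was at least 1.5-fold higher, as 6.18% of all genes were. With median-of-ratios size factors these shares of all genes were 3.72% and 7.31%, and 4 of the 9 were 1.5-fold lower. A ratio below 0 alone was found for 54.4% of the tested genes. Summed, the 9 genes took 1.82% of the UMIs of control and 1.28% of those of iPCKO microglia, a log2 ratio of -0.51 (-0.53 to -0.50, exact conditional 95% interval). The ratios were unequal between genes beyond counting error, since the interval of Fcrls lay below those of the other 8 genes.

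**Figure D1:**
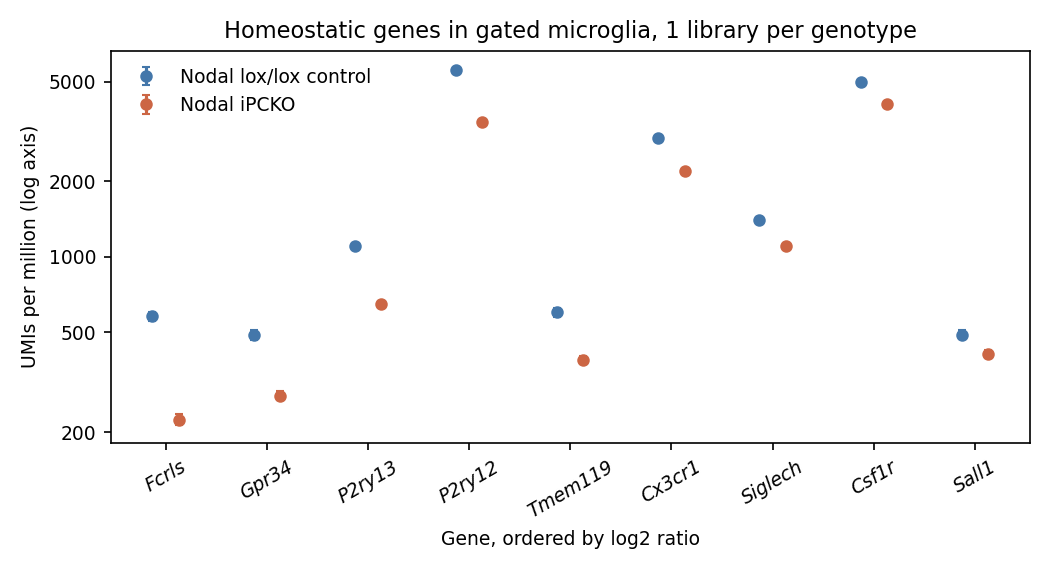
Level of each homeostatic gene in gated microglia (y axis, CPM on a log axis) in the control (blue) and iPCKO (orange) library, genes on the x axis in order of their log2 ratio. Bars are exact Poisson 95% intervals, often within the point, and the orange point lies below the blue one for all 9 genes, with the widest gap for Fcrls (579 and 224 CPM).

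**Figure D2:**
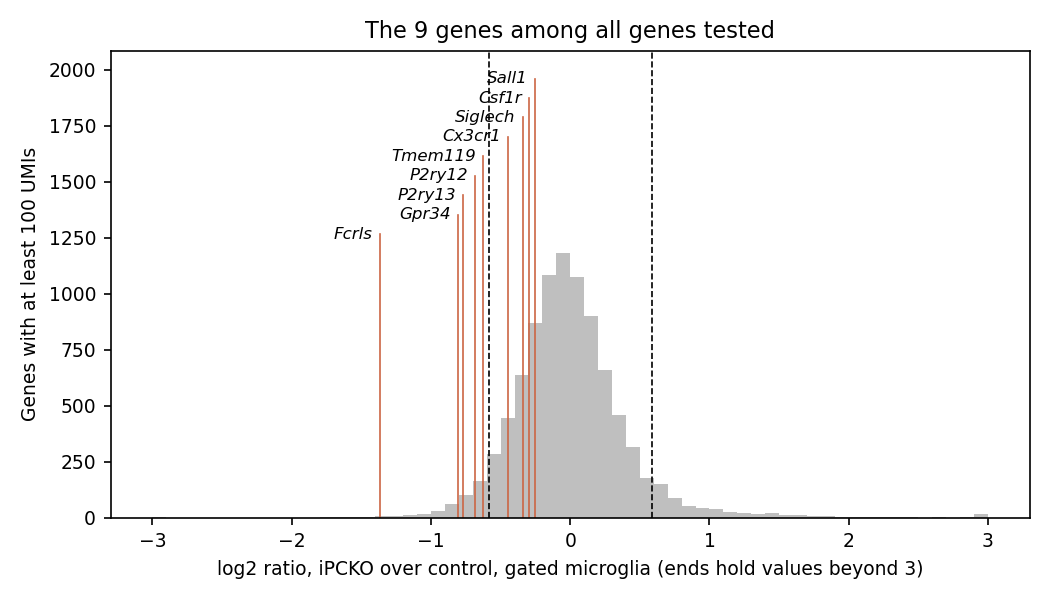
Histogram of the log2 ratio of iPCKO over control in gated microglia (x axis) for 9051 genes (y axis, number of genes), with the 9 homeostatic genes as labelled lines and 1.5-fold in either direction dashed. All 9 lines lie left of 0 and 5 lie left of the lower dashed line, where 5.1% of all genes lie.

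P2ry12 and P2ry13, the receptors for extracellular ADP of which P2ry12 guides microglial processes to injured cells, were both lower by more than 1.5-fold. P2ry12 had 5562 CPM (5489 to 5635) in the control and 3465 CPM (3422 to 3507) in the iPCKO library, a log2 ratio of -0.68 (-0.71 to -0.66). The value per cell moved in the same way, with medians of 55.3 and 34.7 UMIs per 10000 in control and iPCKO cells. As a ratio, the libraries parted further at the lower end. The 10th percentile of P2ry12 was 30.5 UMIs per 10000 in control and 11.1 in iPCKO cells, and the 90th was 84.2 and 66.4. P2ry13 had 1103 CPM (1071 to 1136) in the control and 648 CPM (629.7 to 666) in the iPCKO library, a log2 ratio of -0.77 (-0.83 to -0.71). With each cell thinned to 1500 UMIs, a P2ry13 UMI was found in 80.6% (77.3 to 83.6%) of control and 58.5% (55.5 to 61.5%) of iPCKO cells. Without thinning the shares were 97.7% and 89.9%, and both forms were lower in the mutant. Their neighbour P2ry14, a receptor for UDP-glucose, had 11 and 20 UMIs in all control and iPCKO microglia but 537 and 523 CPM in gated pericytes, and Gpr171 had at most 2 UMIs in microglia of either library. Med12l, the gene around them, had 111 CPM (101 to 122) and 91.3 CPM (84.5 to 98.4), on the strand opposite to theirs. The counting settings given by the study name no strand option, and the default of the tool counts by strand.

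Gpr34, a receptor for lysophosphatidylserine, lies on chromosome X from 13489625 to 13507116, plus strand, inside Cask on the other strand. It had 488 CPM (467 to 510.2) in the control and 279.8 CPM (268 to 292) in the iPCKO library, a log2 ratio of -0.80 (-0.89 to -0.71). Cask, which encodes a scaffold kinase, had 50.9 CPM (44.2 to 58.3) and 46.4 CPM (41.6 to 51.6) in the same cells, intervals that overlap. At 1500 UMIs per cell, Gpr34 was detected in 47.4% (43.5 to 51.4%) of control and 35.4% (32.5 to 38.3%) of iPCKO cells, and unthinned in 86.8% and 76.3%.

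Cx3cr1, the receptor of the neuronal chemokine fractalkine, differed by less than 1.5-fold. It lies on chromosome 9 from 119877749 to 119898945, minus strand, and had 2992 CPM (2939 to 3045) in the control and 2192 CPM (2158 to 2226) in the iPCKO library, a log2 ratio of -0.45 (-0.48 to -0.41). Nearly every cell still carried it, 99.5% and 98.9% of control and iPCKO microglia without thinning. Its ligand gene Cx3cl1 had its highest level among the gated classes in neurons, at 261 CPM (236 to 287) in 67 control and 310.2 CPM (296 to 325) in 210 iPCKO cells. These intervals do not overlap, and the ligand gene was higher in iPCKO neurons.

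Csf1r, the receptor tyrosine kinase on which microglial survival depends, was lower by less than 1.5-fold. It lies on chromosome 18 from 61229714 to 61266535, plus strand, and had 4986 CPM (4917 to 5055) in the control and 4051 CPM (4006 to 4097) in the iPCKO library, a log2 ratio of -0.30 (-0.33 to -0.27). At 1500 UMIs per cell it was detected in 99.7% (98.9 to 99.96%) of control and 98.7% (97.8 to 99.3%) of iPCKO cells. One of its ligands was higher in microglia themselves: Csf1 had 127 CPM (116 to 138) and 460.3 CPM (445 to 476), a log2 ratio of 1.86. In gated endothelial cells Csf1 had 61.8 and 124 CPM. Il34, the other ligand, had 197 CPM (174 to 222) in control and 205 CPM (186 to 226) in iPCKO pericytes, intervals that overlap.

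The Csf1r value carries a limit of its own. Its neighbour on the same strand, 11580 bases away, is Pdgfrb, the gene used for the Cre transgene that the mutants carry. In gated microglia Pdgfrb had 14 UMIs (3.44 CPM) in the control and 1553 UMIs (209 CPM) in the iPCKO library, in 1.24% and 67.4% of cells. Endothelial cells of the same libraries, at medians of 9642 and 9887 UMIs, had Pdgfrb UMIs in 0.619% and 1.79% of cells, so that the iPCKO microglial share lies above this background. Gated pericytes, which express the gene natively, had 877 and 2216 CPM. Whether the transgene also holds Csf1r is not given in the sources used here, and Csf1r transcripts of the endogenous gene and of a possible further copy cannot be told apart in these counts. When iPCKO microglia were split by whether a Pdgfrb UMI remained after thinning to 1500 UMIs, Csf1r had 4254 CPM in the 309 cells with a Pdgfrb UMI and 3977 CPM in the 774 cells without one, a log2 difference of 0.10 (0.06 to 0.13). The cells with one were shallower, at medians of 5766 and 6528 UMIs. In the same split Csf1 differed by -0.54 (-0.67 to -0.42), P2ry12 by 0.17 (0.13 to 0.21) and Fcrls by -0.03 (-0.19 to 0.13). The 354 iPCKO cells without any Pdgfrb UMI at full depth had log2 ratios to the control of -0.85 for P2ry12, -0.37 for Csf1r and -1.37 for Fcrls. Both splits were chosen after seeing the data.

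Fcrls had the lowest ratio of the remaining surface genes and Siglech the highest. Fcrls, an Fc receptor-like gene of mouse microglia, had 579 CPM (556 to 603) in the control and 224 CPM (214 to 235) in the iPCKO library, a log2 ratio of -1.37 (-1.46 to -1.28). This is 38.7% of its control level. At 1500 UMIs per cell a Fcrls UMI was found in 53.7% (49.7 to 57.6%) of control and 30.0% (27.3 to 32.8%) of iPCKO cells, and unthinned in 91.1% and 64.1%. The median cell had 5.10 UMIs per 10000 in control and 1.64 in iPCKO. Tmem119, a transmembrane protein widely used to stain microglia, lies on chromosome 5 from 113931781 to 113938577, minus strand, and had 601 CPM (578 to 626) in the control and 389.6 CPM (375 to 404) in the iPCKO library, a log2 ratio of -0.63 (-0.70 to -0.55), just past the 1.5-fold limit. It was detected in 58.6% (54.7 to 62.5%) of control and 43.7% (40.7 to 46.7%) of iPCKO cells at 1500 UMIs. Siglech, a sialic acid-binding lectin on chromosome 7 from 55417926 to 55429195, plus strand, had 1402 CPM (1366 to 1439) in the control and 1107 CPM (1084 to 1132) in the iPCKO library, a log2 ratio of -0.34 (-0.39 to -0.29), and it was detected in 83.0% (79.9 to 85.9%) of control and 75.4% (72.8 to 78.0%) of iPCKO cells.

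Sall1, the zinc finger factor that holds microglia in their homeostatic state, differed least. It lies on chromosome 8 from 89753863 to 89770823, minus strand, and had 489.8 CPM (468 to 512) in the control and 411 CPM (397 to 426) in the iPCKO library, a log2 ratio of -0.25 (-0.33 to -0.17). At 1500 UMIs per cell it was detected in 49.9% (46.0 to 53.9%) of control and 44.2% (41.2 to 47.2%) of iPCKO cells, intervals that overlap. Of 12 further lineage and enhancer factors none passed 1.5-fold in either direction, beside 5.1% and 6.18% of all genes, and 8 were below 0, beside 54.4% of all genes, both near the background. Their median log2 ratio was -0.18. Spi1, which encodes PU.1, had 271 and 274 CPM, a log2 ratio of 0.02 (-0.09 to 0.13). The lowest ratios among the factors were -0.56 (-0.72 to -0.39) for Sall3, a relative of Sall1, and -0.50 (-0.56 to -0.44) for Maf.

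Across cell classes of the cortex, 7 of the 9 genes had at most 15.7 CPM in any class other than macrophages. Classes were gated on 3 or more of their marker genes with at least 2 UMIs each. In the 808 control endothelial cells, taken as the background from free RNA, P2ry12 had 10.2 CPM, with UMIs in 9.53% of cells (median depth 9642 UMIs). In the iPCKO library this background was 4.21 CPM and 4.07%. The exceptions were Tmem119 and Sall1. Tmem119 had 62.8 CPM (49.6 to 78.4) in control and 53.1 CPM (42.0 to 66.3) in iPCKO fibroblasts, with a UMI in 41.6% and 37.9% of them, against 0.743% and 0.414% of endothelial cells. Sall1 had 83.4 CPM (76.9 to 90.3) in control and 97.1 CPM (90.7 to 104) in iPCKO astrocytes, and 50.4 and 51.0 CPM in pericytes. Outside microglia Sall1 was thus not lower in iPCKO astrocytes or pericytes.

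**Figure D3:**
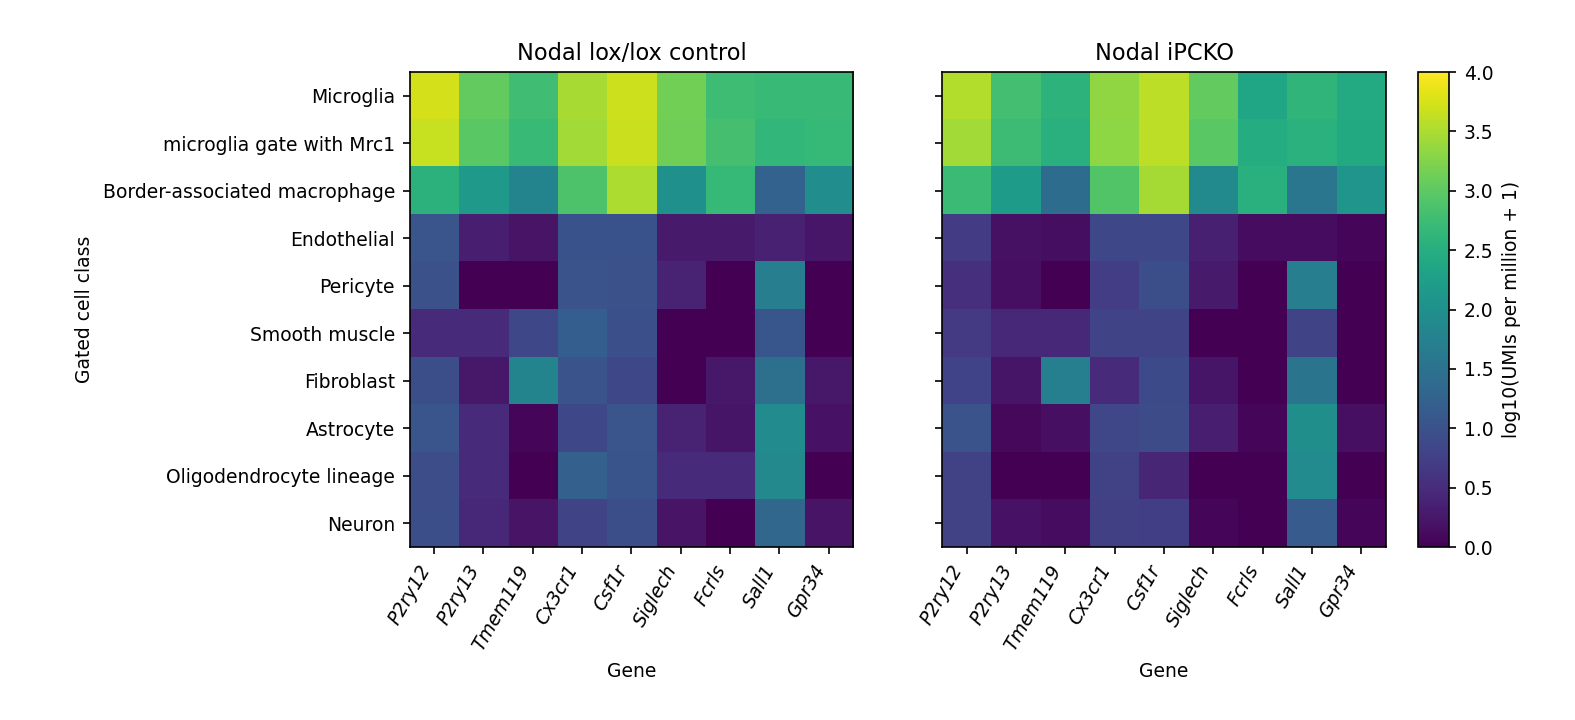
Level of each gene (x axis) in each gated cell class (y axis) of the control (left) and iPCKO (right) cortex library, as log10 of CPM plus 1 (colour). The top 2 rows, cells of the microglia gate without and with Mrc1 UMIs, are bright for all 9 genes, and outside the macrophage rows Sall1 in astrocytes, oligodendrocyte lineage and pericytes and Tmem119 in fibroblasts stand out.

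Border-associated macrophages, the macrophages of vessels and meninges, differed from microglia within the list. The gate for them, on Mrc1, Pf4, Cbr2, Lyve1, F13a1, Ms4a7 and Cd163, held 36 control and 31 iPCKO cells. In the control they had 480.2 CPM (404 to 567) of Fcrls and 3255 CPM of Csf1r, against 579 and 4986 CPM in microglia, but 377 CPM of P2ry12 and 17.2 CPM of Sall1. In the iPCKO library Fcrls had 344 CPM (274 to 425) and P2ry12 528 CPM (441 to 627), the latter not below its control interval of 310.1 to 455. A further 231 control and 357 iPCKO barcodes met the microglia gate but held Mrc1 UMIs, without passing the macrophage gate. The gating partly sets their contrast in Pf4, a gene of the macrophage gate. In these barcodes its level was 8.49 and 8.54 CPM, against 2051 and 2103 CPM in the gated macrophages. They had 4619 and 2782 CPM of P2ry12, against 5562 and 3465 CPM in gated microglia, and with all barcodes holding Mrc1 kept the median log2 ratio of the 9 genes was -0.58.

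The lung libraries offered almost no cells for comparison, and leukocytes had been depleted from them with CD45 beads. The same gate held 23 barcodes in the 4 lung libraries together, of P21 Bdnf and Hgf control and iPCKO mice. These held 74 UMIs of Csf1r (193 CPM) and 13 of Cx3cr1, no UMI of Fcrls or Sall1, and between 1 and 3 of each other member.

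The lower levels were spread over the cells rather than limited to a few. With each cell thinned to 1500 UMIs (643 control and 1083 iPCKO cells, 3 iPCKO cells left out), the median number of the 9 genes with a UMI was 7 in control and 6 in iPCKO microglia. At least 7 genes were detected in 58.8% (54.9 to 62.6%) of control and 31.6% (28.8 to 34.4%) of iPCKO cells. At most 3 were detected in 2.02% (1.08 to 3.43%) and 6.65% (5.24 to 8.30%). The distribution in the mutant kept a single peak, and cells without any of the 9 were 1 and 3 in number. By the share of all its UMIs that a cell spent on the 9 genes, the 10th percentile, median and 90th percentile were 1.31%, 1.89% and 2.42% in the control and 0.762%, 1.34% and 1.96% in iPCKO. Cells below 1% made up 3.11% (1.91 to 4.76%) and 21.6% (19.2 to 24.2%).

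**Figure D4:**
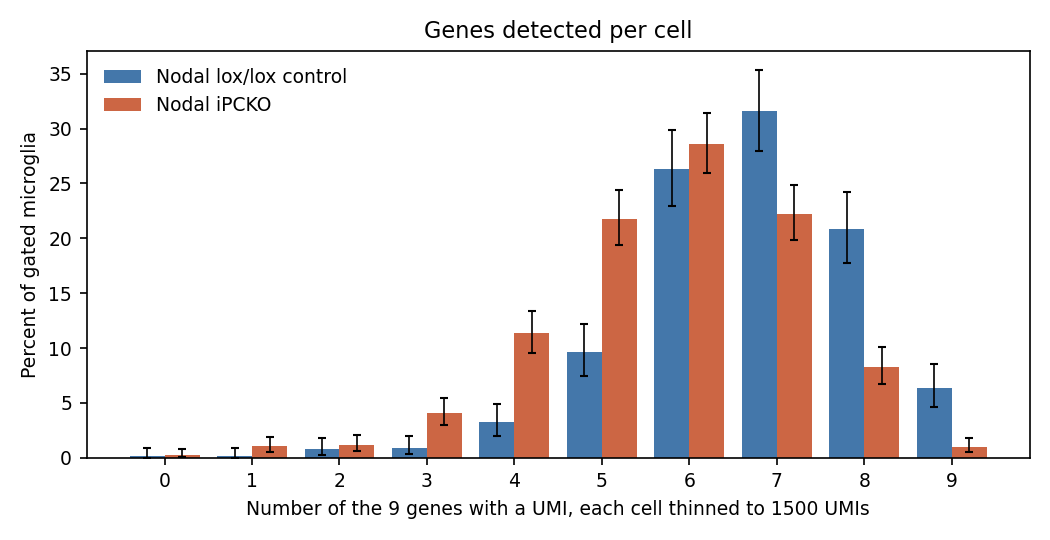
Number of the 9 genes with a UMI per cell after thinning to 1500 UMIs (x axis) against the percent of gated microglia (y axis) in the control (blue) and iPCKO (orange) library, with exact Clopper-Pearson 95% intervals as bars. The highest bar is at 7 genes in the control (31.6%) and at 6 genes in iPCKO (28.6%).

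All 9 genes were lower in iPCKO cells with many UMIs of disease-associated genes than in iPCKO cells with none, P2ry12 by most. Cells were grouped by the UMIs of 13 such genes (Spp1, Lpl, Cst7, Itgax, Clec7a, Gpnmb, Igf1, Csf1, Lgals3, Axl, Fabp5, Cd63 and Apoe) left after thinning: 0, 1 to 2, 3 to 9, and 10 or more. The groups held 202, 282, 151 and 8 control and 185, 383, 454 and 61 iPCKO cells, so that the last control group is small, and their cells differed in depth, with medians of 5687 UMIs in the first and 8381 in the last iPCKO group (5833 and 5342 in the control). The part of depth in these differences was not tested. P2ry12 had 5689.8, 5666, 5262 and 4258 CPM over these groups in the control and 4517, 3984, 2974 and 1818 CPM in iPCKO. Between the last and the first group the log2 ratio of P2ry12 in the mutant was -1.31 (-1.41 to -1.21), and -0.42 (-0.64 to -0.20) in the control. Over the 9 genes it ran from -1.31 to -0.36 in the mutant, and from -0.98 (Siglech) to 0.18 (Gpr34) in the control, where 8 of 9 were below 0. Of all genes with 100 UMIs or more in the first and last group together, 62.6% were below 0 in the mutant and 62.4% in the control. Between mutant and control the intervals of the last-to-first ratio lay apart for P2ry12 and overlapped for the other members, with 8 cells in the last control group. Siglech had -0.52, Cx3cr1 -0.48 and Csf1r -0.36 in the mutant against -0.98, -0.54 and -0.44 in the control. Fcrls had 266, 214, 224 and 187 CPM in the mutant against 583, 575, 588 and 433 CPM in the control. In iPCKO cells with no disease-associated UMI left after thinning it had a log2 ratio of -1.13 (-1.33 to -0.94) to such control cells. In these cells 8 of the 9 genes were below 0, beside 52.1% of all genes, the median log2 ratio of iPCKO over control was -0.33, and 1 gene, Fcrls, was at least 1.5-fold lower, as were 3.7% of the 4213 genes with 100 UMIs or more in them. Sall1 in them had 504 CPM (465 to 545) in control and 528 CPM (487 to 572) in iPCKO, intervals that overlap. In cells with 3 to 9 UMIs the median was -0.65 and 5 genes were 1.5-fold lower, beside 7.36% of 5934 genes.

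**Figure D5:**
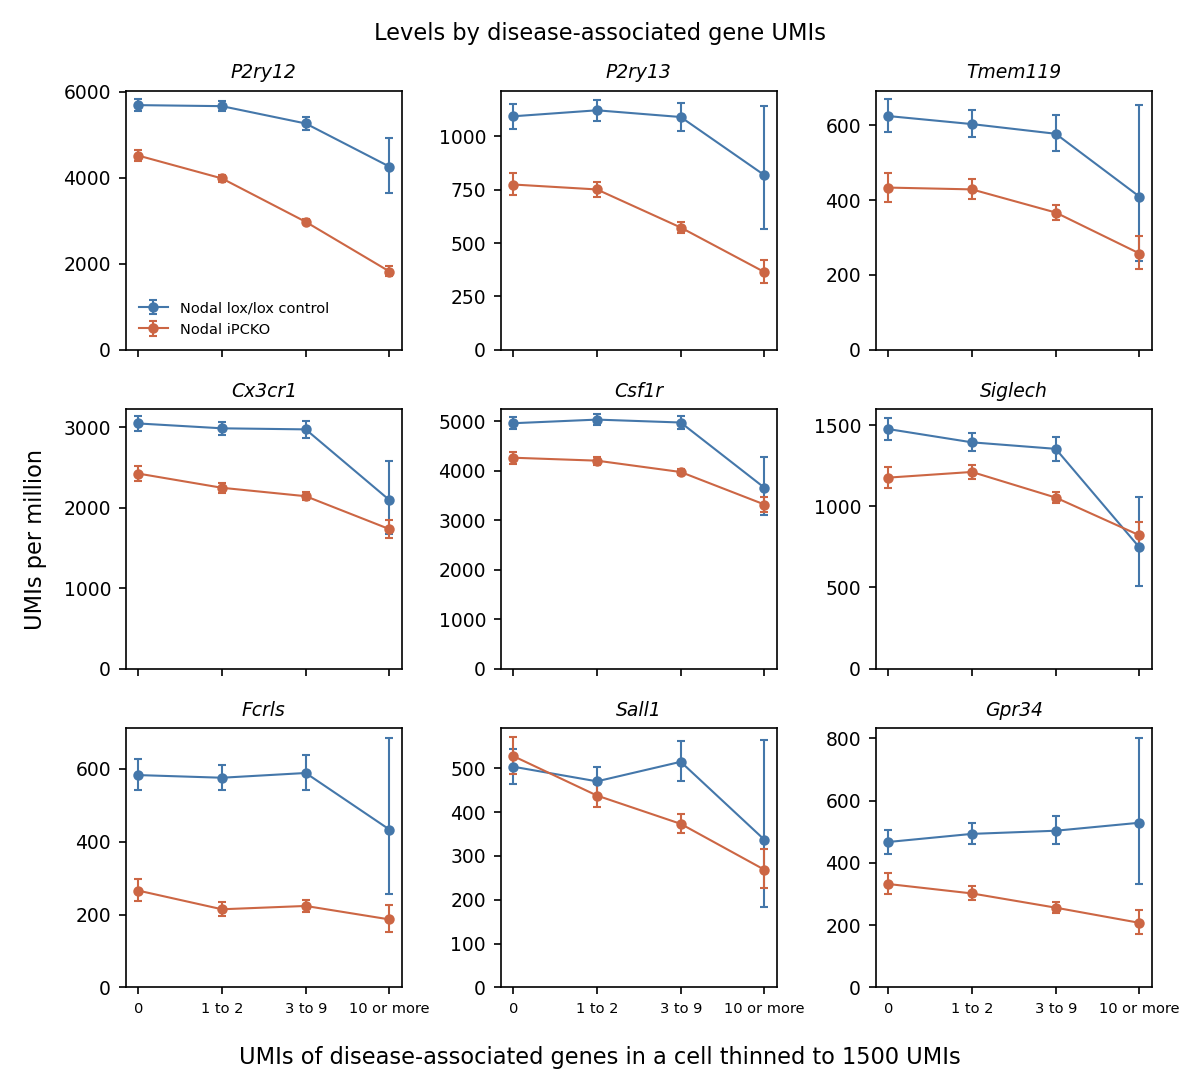
Level of each gene (y axis, CPM) in gated microglia grouped by UMIs of 13 disease-associated genes after thinning to 1500 UMIs (x axis), control in blue and iPCKO in orange, with exact Poisson 95% intervals. P2ry12 is lower in each further group of the mutant, from 4517 to 1818 CPM, while Fcrls is lower in every mutant group and the blue and orange points of Sall1 lie together in the group of 0.

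Cycling microglia, defined by at least 2 UMIs in 3 or more of 9 cell cycle genes, were 15 control and 70 iPCKO cells. In the mutant their P2ry12 level was 2186 CPM (2075 to 2301) against 3591 CPM (3546 to 3637) in the other cells, and Siglech had 589.5 and 1159 CPM. All 9 genes were lower in cycling than in other iPCKO cells, as were 56.2% of 7698 genes, and the cycling cells were deeper, with medians of 9188 and 6180 UMIs. In the control P2ry12 had 4174 CPM (3825 to 4548) in cycling and 5606 CPM in other cells, and Siglech 701 and 1425 CPM. Tmem119, at 797 and 595 CPM, and Sall1, at 725 and 482 CPM, were higher in the few cycling control cells. Leaving the cycling cells out gave a median log2 ratio of -0.59 between genotypes.

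Other microglia-enriched genes moved in the same direction. Of 28 such genes 27 had at least 100 UMIs, 9 of these were at least 1.5-fold lower and 0 higher, beside 5.1% and 6.18% of all genes, and their median log2 ratio was -0.48. Among the largest differences were those of Crybb1, a crystallin (427 to 163 CPM, log2 ratio -1.39), Slc2a5, a fructose transporter (293 to 153 CPM, log2 ratio -0.94) and Adgrg1, an adhesion receptor (339 to 181 CPM, log2 ratio -0.90). Not all genes of the lineage were lower: Tyrobp, an adaptor of surface receptors, had a log2 ratio of 0.06 and Aif1, which encodes the microglial stain IBA1, 0.24. The gate genes went both ways too, but cells were selected on them, so that their levels are partly set by the rule. Their log2 ratios were 0.05 for C1qa and -0.08 for C1qb of the complement component C1q, and 0.28 for Ctss, a lysosomal protease. Laptm5, a lysosomal membrane protein, had -0.26, and Selplg, a selectin ligand, had -0.61 and was itself past 1.5-fold lower. Requiring 4 of the 5 gate genes gave a median of -0.62 for the 9 genes and requiring 2 gave -0.63.

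Among 15 genes of the TGFβ and Nodal pathway 1 passed 1.5-fold lower and none higher, beside 5.1% and 6.18% of all genes, a share near this background, with a median log2 ratio of -0.15. The one was Acvr2b, an activin and Nodal receptor, with 71 control and 65 iPCKO UMIs, a log2 ratio of -0.99 (-1.50 to -0.49). Tgfbr1 and Tgfbr2, the receptors of TGFβ, had log2 ratios of -0.23 and 0.21, and Smad2 and Smad3, which carry the signal to the nucleus, -0.22 and -0.21. In the opposite direction, 8 of 11 disease-associated genes with 100 UMIs in both libraries together were at least 1.5-fold higher, beside 6.18% of all genes. The median log2 ratio of the 11 was 1.55. The largest were Itgax, an integrin (6.64 to 54.3 CPM, log2 ratio 3.03), Axl, a receptor for dying cells (36.9 to 261 CPM, log2 ratio 2.82), and Clec7a, a lectin (4.42 to 31.3 CPM, log2 ratio 2.82). Some of the 11 reached the minimum only through the iPCKO library, such as Itgax with 27 control and 403 iPCKO UMIs. The minimum thus favours genes that are higher in iPCKO. It left out Gpnmb and Igf1, the latter with 23 and 22 UMIs, a log2 ratio of -0.93 (-1.84 to -0.02). All 9 cycling genes were higher by 1.5-fold as well, though some passed the minimum only through the iPCKO library, such as Cenpf (65 and 228 UMIs). So were the 4 of 8 interferon genes with 100 UMIs. These 4 had from 6 (Ifit3) to 64 (Ifi27l2a) control UMIs, so that their count was largely set by the minimum. Genes known to rise during dissociation went both ways, 7 above and 7 below 0, with a median log2 ratio of -0.01. Of these 14, 1 passed 1.5-fold higher, the chemokine Ccl4 (0.63), beside 6.18% of all genes. Fosb had 0.57 and Ccl3 0.52, while Jun had -0.58 and Egr1 -0.52. Summed, the 14 genes had 14057 CPM in the control and 16738 CPM in the iPCKO library.

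Within each library the 9 genes were only loosely tied to each other across cells. Over the 36 pairs of genes Pearson's r of log-normalized levels ran from -0.01 to 0.53 in 643 control cells and from 0.06 to 0.56 in 1086 iPCKO cells. The closest pair in both was P2ry12 with P2ry13, at 0.53 and 0.56. Sparse counts lower such values, and cells of a library share its depth and free RNA. Among 2187 other genes with at least 1000 UMIs, those that followed the sum of the 9 genes most closely in both libraries included Sparc, a matrix protein (r of 0.55 and 0.58), the complement genes C1qc (0.52 and 0.58) and C1qb (0.46 and 0.53), and Vsir, an immune checkpoint receptor (0.43 and 0.50). Of these, Vsir was lower in the mutant by 1.5-fold or more, with a log2 ratio of -0.69, while Sparc had -0.25 and C1qc 0.06.

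In barcodes of 20 to 200 UMIs, which hold free RNA and cell fragments, P2ry12, Fcrls and Csf1r were also lower in iPCKO. The share of all genes that were lower in these barcodes is not given here. P2ry12 had 602 CPM in control and 345 CPM in iPCKO barcodes, Fcrls 58.1 and 23.4 CPM, and Csf1r 473 and 422 CPM. These barcodes were not selected by the gate, but they come from the same 2 suspensions and also reflect how many microglia each suspension held.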

How the data were processed

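Single-cell transcriptomes of pooled P12 cortices (1 library per genotype) were measured with the BD Rhapsody whole-transcriptome assay. The authors aligned reads and counted UMIs with STAR (version 2.7.10a per the labels, in its single-cell mode) against GRCm39. STAR was run without a cell filter, and the deposited matrices hold all barcodes, whereas the study's own later filters on barcodes were not applied here. The authors shared reads that map to several genes by expectation maximization, so these matrices, as deposited, hold estimated counts, unnormalized, of which 9.08% and 9.21% of entries are not whole. They were rounded here. For the 9 genes only Cx3cr1 had entries that were not whole (0.312% and 0.837%). Totals per matrix were 33889545 and 54791946 UMIs.

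The members and gene lists were chosen with earlier results of these data known, and no list was tested. UMIs were summed over gated cells and scaled to their total. Poisson, Clopper-Pearson and conditional ratio intervals (95%) came from scipy 1.17.1, and the ratio and thinning steps were checked on simulated counts. A count of 0 was set to 3 UMIs for ratios across all genes. No doublet caller was run, and a filter on markers of other classes served as an alternative. Named genes were the 9 members, the gate genes, ligands, neighbours and host genes, the list genes with the largest differences past 1.5-fold (at most 4 per list), and the 5 genes following the summed members most closely. Pdgfrb, haemoglobin and genes named as not passing were added after values were seen. Lists of bead barcode parts were not used. A few genes that this rule selects are not reported here.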

Additional observations from a re-analysis of the deposited data

How the results depend on the processing

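The 9 genes were recomputed under 21 alternatives, 2 of them (totals without Pdgfrb and haemoglobin, or without the 9 genes and gate genes) chosen after seeing the data. The median stayed below 0 in all of them, from -0.76 to -0.24. Over the depth ranges, from the shallowest to the deepest cells, the median was -0.24, -0.50, -0.57 and -0.76. It moved outside the counting interval of the median gene within cells of 1500 to under 3000 UMIs (-0.24, 1 gene past 1.5-fold beside 3.51% of 228 genes, 28 control cells), of 3000 to under 6000 UMIs (-0.50) and of at least 12000 UMIs (-0.76, 18 control cells), and in cells with no disease-associated UMI after thinning (-0.33, 1 gene past 1.5-fold); the cause was not tested. With median-of-ratios size factors, with Mrc1 barcodes kept and in cells of 6000 to under 12000 UMIs 4 genes passed, without Tmem119 (beside 3.72%, 5.25% and 6.33% of all genes), and in cells of 3000 to under 6000 UMIs 4, without P2ry12 (beside 3.08%). Tmem119 passed 1.5-fold in 16 of the 21 and Fcrls in all 21. P2ry12, P2ry13, Tmem119, Csf1r, Fcrls and Gpr34 were below 0 in each, while Cx3cr1, Siglech and Sall1 each had 1 alternative above 0 (up to 0.05, 0.06 and 0.07). With backgrounds of at least 20 and at least 1000 UMIs, 9.79% and 3.10% of genes were 1.5-fold lower. The gated share of barcodes moved to 28.1% (control) and 29.4% (iPCKO) with Mrc1 kept, and in the iPCKO library to 23.1% with 2 gate genes and 23.1% from 3000 UMIs. No paired analysis was possible because each genotype has 1 library. With 1 library per genotype, differences between mice, dissociations and libraries cannot be told apart from the genotype. Only the mutants are labelled with the Cre transgene, so its presence cannot be told apart from the loss of Nodal.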
